A study of Homo sapiens with 12 samples.

Results

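The 10 genes described here encode the DNA methyltransferases DNMT1, DNMT3A and DNMT3B, their partners UHRF1 and HELLS, the 5-methylcytosine oxidases TET2 and TET3, and the PRC2 core subunits EZH2, EED and SUZ12. They are 10 of the 19775 genes measured. Each is represented by the probe set, among those listed with its symbol alone, that had the highest mean over the 12 arrays. RNA came from U937 cells, a human leukemia line of monocyte-like character. The cells were given DMSO vehicle, or JS-K for 90 min, 4 h or 24 h, with 3 biological replicates and 3 arrays in each of the 4 groups. JS-K is a prodrug from which glutathione releases nitric oxide. The design text places the expression data beside metabolite measurements of JS-K-treated leukemia cells. Neither the JS-K dose nor the duration of the vehicle exposure is given in the labels, and all JS-K times share 1 vehicle group, so that exposure to JS-K and time in culture cannot be told apart.

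DNA methylation at CpG sites is set by DNMT3A and DNMT3B and is copied to the new strand after replication by DNMT1, which UHRF1 brings to hemimethylated DNA. HELLS is a chromatin remodeler that opens nucleosomal DNA to this machinery. TET enzymes oxidize 5-methylcytosine on the way to its removal, and mutations of TET2 and DNMT3A are frequent in myeloid leukemia. PRC2 methylates lysine 27 of histone H3 through EZH2, which needs EED and SUZ12 for activity.

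The genes lie on 8 chromosomes in GRCh38.p14, with DNMT1 (chr19:10133346-10194953) and UHRF1 (chr19:4903080-4962154) both on chromosome 19, and DNMT3A (chr2:25227874-25342590) and TET3 (chr2:73983631-74135498) both on chromosome 2. DNMT3B lies at chr20:32762385-32809356, HELLS at chr10:94545788-94613905, TET2 at chr4:105145875-105279803, EZH2 at chr7:148807383-148884291, EED at chr11:86244753-86287615 and SUZ12 at chr17:31937007-32001038. RefSeq promoter windows, which hold 250 bases before and 50 after a transcript start, were matched by symbol for all 10 genes, with 20 windows in all because some genes have several starts. A motif of the E2F factors, which drive genes of DNA synthesis, was searched as TTTCCCGC, TTTCGCGC, TTTGCCGC or TTTGGCGC on both strands. These letters occurred in 6 of the 20 windows and in 5 of the 10 genes (DNMT1, UHRF1, HELLS, EZH2 and SUZ12), and in 3.31% of all 35116 windows of RefSeq genes. Windows of 1 gene can overlap, so the 6 are not separate observations. The E2F letters are 1 of 7 motifs searched on both strands, some of which can overlap. Of the 10 genes, 7 held the CCAAT box (CCAAT, in 34.6% of all windows), 7 the GC box (GGGCGG, 45.0%), 3 the CHR element (TTTGAA or TTTAAA, 24.0%), 3 the E-box (CACGTG, 7.26%), 1 the antioxidant response element core (TGACNNNGC, 13.3%) and 0 the AP-1 site (TGACTCA or TGAGTCA, 4.95%). Counts of genes and shares of windows are unlike measures, because a gene can hold a motif in any of its windows, of which DNMT3A has 6. The windows of DNMT3B, DNMT1, UHRF1 and HELLS are printed 5′ to 3′ because these are the genes whose signal moved furthest, with E2F letters in capitals.
DNMT3B (chr20:32779602-32779901, plus strand): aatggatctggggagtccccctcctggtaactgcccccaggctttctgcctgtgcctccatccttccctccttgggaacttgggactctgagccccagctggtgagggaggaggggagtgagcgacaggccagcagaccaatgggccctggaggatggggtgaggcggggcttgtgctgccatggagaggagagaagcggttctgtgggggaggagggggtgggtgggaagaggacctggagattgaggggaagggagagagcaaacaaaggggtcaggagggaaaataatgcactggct
DNMT1 (chr19:10194904-10195203, minus strand): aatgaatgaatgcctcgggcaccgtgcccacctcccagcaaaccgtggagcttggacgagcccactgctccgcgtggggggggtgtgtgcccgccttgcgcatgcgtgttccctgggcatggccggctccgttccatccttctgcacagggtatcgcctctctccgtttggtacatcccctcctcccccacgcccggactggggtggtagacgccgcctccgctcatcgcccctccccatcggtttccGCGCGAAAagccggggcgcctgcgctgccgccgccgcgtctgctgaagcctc
UHRF1 (chr19:4909251-4909550, plus strand): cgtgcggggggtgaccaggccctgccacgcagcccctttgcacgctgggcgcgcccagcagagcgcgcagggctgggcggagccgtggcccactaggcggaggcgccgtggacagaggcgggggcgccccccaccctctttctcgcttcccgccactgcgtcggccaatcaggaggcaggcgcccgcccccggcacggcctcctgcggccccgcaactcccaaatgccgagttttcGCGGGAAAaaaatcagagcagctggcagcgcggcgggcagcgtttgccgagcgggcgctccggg
HELLS (chr10:94545538-94545837, plus strand): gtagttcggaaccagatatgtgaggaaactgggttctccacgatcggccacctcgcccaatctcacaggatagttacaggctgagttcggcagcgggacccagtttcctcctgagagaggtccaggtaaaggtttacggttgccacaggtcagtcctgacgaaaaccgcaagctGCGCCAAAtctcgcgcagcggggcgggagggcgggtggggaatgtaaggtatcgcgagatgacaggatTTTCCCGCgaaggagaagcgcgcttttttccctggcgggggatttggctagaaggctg
The DNMT1 match straddled the start, the UHRF1 match began 14 bases before it, and the HELLS window held a match on each strand, 76 and 8 bases before the start. The DNMT3B window belongs to a start that lies 17467 bases inside the gene. It held no E2F letters and 3 CpG dinucleotides, against a median of 14 over all windows. No window at the 5′ end of DNMT3B was searched, so neither value describes that end. The other 3 windows printed held 30 (DNMT1), 36 (UHRF1) and 22 (HELLS) CpG. The UHRF1 start lies 6421 bases inside the gene as annotated, and the window of a second UHRF1 start, 7064 bases inside, also held a match.

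Array quality bears on what follows. Replicate 2 of the 4 h group stood apart, with a median of 3.10 over all probe sets, against 2.84 to 2.99 on the other 11 arrays, an upper quartile of 6.20 and the largest difference between the 3′ and 5′ ACTB probe sets (1.15). Signal of poly-A RNA spikes averaged 3.04 in vehicle, 3.08 at 90 min, 7.02 at 4 h and 8.47 at 24 h on the log2 scale. Hybridization spikes averaged 9.96, 10.03, 10.21 and 11.70 in the same order. The poly-A spikes were under 4 in vehicle and at 90 min and well above it at 4 h and 24 h. In comparisons of these later times with vehicle or with 90 min, the spike difference and JS-K exposure cannot be told apart. Both kinds of spikes also differed between 4 h and 24 h, so the same limit applies there. The part of the spikes in the results was not tested. Of 16 measured monocytic markers, 13 were at or above 4 in every group, among them LYZ, ELANE, SPI1 and PTPRC, whereas CD14, FCGR1A and MPO lay between 2.16 and 2.44. A log2 signal under 4 is called low here. None of 6 T cell and none of 5 epithelial markers reached 4 in any group, while PAX5 (4.35 to 5.99), COL1A1 (5.09 to 5.37) and, before 4 h, KLF1 (4.53 in vehicle and 4.13 at 90 min) did. No array was a copy of another. In bulk RNA, fewer cells of a type and less RNA per cell cannot be told apart.

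DNMT3B, which methylates unmodified CpG sites, was the 1 gene of the 10 that rose, and it rose at every time. Its log2 signal was 7.17, 6.83 and 7.23 in vehicle, 7.82, 7.95 and 7.83 at 90 min, 8.27, 8.10 and 8.19 at 4 h, and 9.16, 9.08 and 8.94 at 24 h. No 2 groups overlapped, and every later group lay wholly above the earlier ones. Against vehicle it was higher by 0.79 ± 0.11 at 90 min (1.73-fold, limma adjusted p = 0.00072), by 1.11 ± 0.11 at 4 h (2.16-fold, adjusted p = 1.95e-05) and by 1.98 ± 0.11 at 24 h (3.95-fold, adjusted p = 2.99e-08), where errors are SE and n = 3 arrays a group. Between JS-K times, DNMT3B rose by 0.87 ± 0.11 at 24 h against 4 h (adjusted p = 7.7e-05), while the difference of 0.32 ± 0.11 at 4 h against 90 min did not pass the test (adjusted p = 0.10) although the arrays did not overlap. Among the 9551 genes with a mean of at least 4, 1.96% rose further than DNMT3B at 90 min, 2.28% at 4 h and 1.94% at 24 h. Only 1 probe set, 220668_s_at, carried its symbol alone, so no other probe set could be set beside it.

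DNMT3A, the other de novo methyltransferase, did not pass the test in any comparison. Its signal was 5.78, 5.96 and 5.95 in vehicle, 5.96, 5.95 and 5.95 at 90 min, 6.03, 5.54 and 5.97 at 4 h, and 6.01, 6.14 and 5.98 at 24 h. The 24 h arrays lay just above the vehicle arrays, and at 24 h against vehicle the difference was 0.15, with a 95% confidence interval of -0.17 to 0.47 (adjusted p = 0.383). With quantile normalization that difference was 0.34 and passed (adjusted p = 0.0239), and with the mean of its 3 probe sets it was 0.21 and passed (adjusted p = 0.0278). Of these 3 probe sets, 2 had low signal, with means of 2.44 (244428_at) and 2.18 (218457_s_at), so their mean adds little about DNMT3A.

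**Figure D1:**
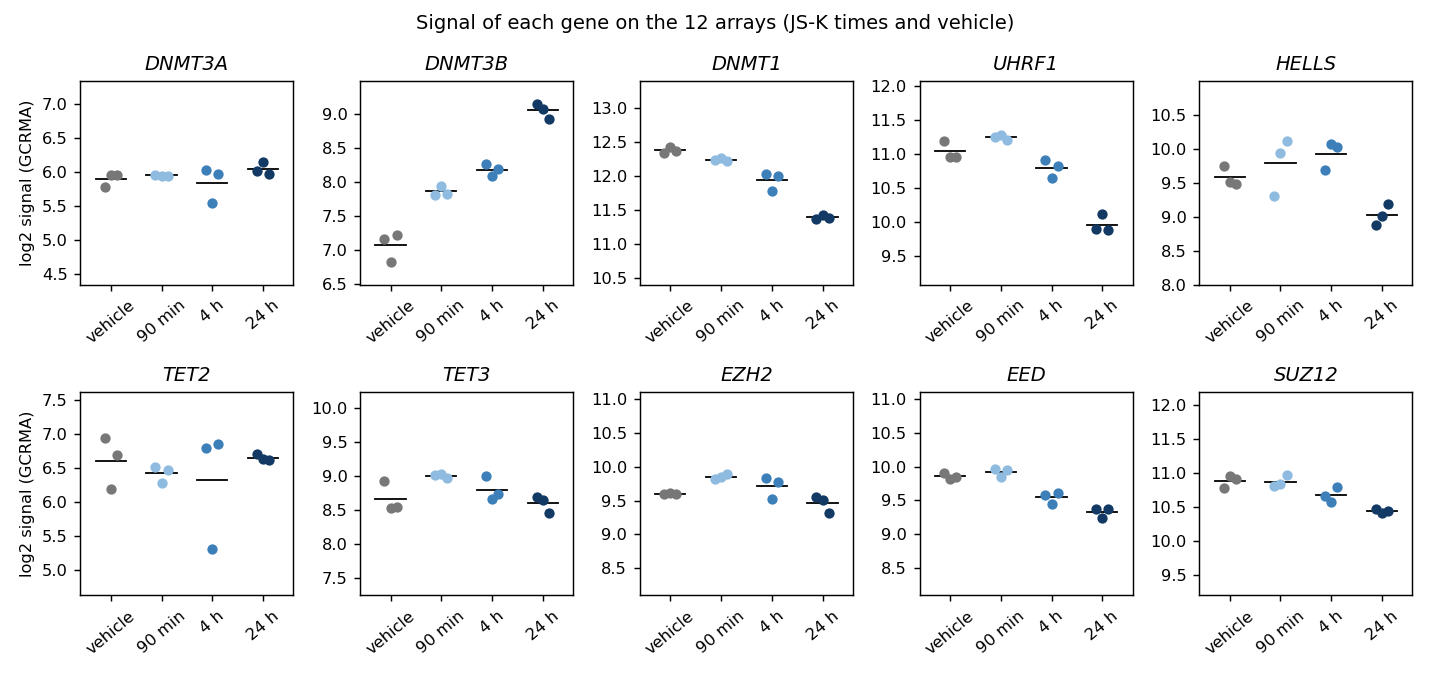
Log2 signal of the 10 genes on each of the 12 arrays, with vehicle at the left of each panel followed by JS-K at 90 min, 4 h and 24 h. Each point is 1 array, each bar is the mean of 3, every panel spans 3 log2 units, and DNMT3B climbs by 1.98 over the series while DNMT1 and UHRF1 end 0.99 and 1.08 below vehicle.

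DNMT1 and UHRF1, the enzyme and the recruiting factor of maintenance methylation, both fell by about 1 log2 unit by 24 h. DNMT1 signal was 12.34, 12.44 and 12.37 in vehicle, 12.24, 12.26 and 12.22 at 90 min, 12.03, 11.78 and 12.01 at 4 h, and 11.37, 11.43 and 11.39 at 24 h. Each group lay below the one before it without overlap. At 90 min DNMT1 differed from vehicle by -0.14 ± 0.06, which did not pass (adjusted p = 0.243); without replicate 2 of the 4 h group, which enters the shared spread, it passed (adjusted p = 0.0251). DNMT1 fell by 0.45 ± 0.06 at 4 h (adjusted p = 0.000296) and by 0.99 ± 0.06 at 24 h (adjusted p = 1e-07), when it was 1.99-fold lower than in vehicle. It also fell at 4 h against 90 min (-0.30 ± 0.06, adjusted p = 0.00925) and at 24 h against 4 h (-0.55 ± 0.06, adjusted p = 3.78e-05).

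UHRF1 followed another course before 24 h. Signal was 11.20, 10.96 and 10.95 in vehicle, 11.25, 11.27 and 11.21 at 90 min, 10.91, 10.65 and 10.82 at 4 h, and 9.89, 10.11 and 9.87 at 24 h. The 90 min arrays were all above the vehicle arrays and the 4 h arrays all below them. The difference at 90 min was 0.21 ± 0.09 (adjusted p = 0.234), short of the threshold. At 4 h the fall of 0.24 ± 0.09 passed narrowly (adjusted p = 0.0485) and was lost in 12 of 17 alternative settings, including the fits without any single vehicle array (-0.29 to -0.17), without replicate 2 of the 4 h group (-0.17, adjusted p = 0.146) and without its replicate 3 (-0.26). At 24 h UHRF1 was 2.11-fold lower than in vehicle, a fall of 1.08 ± 0.09 (adjusted p = 9.51e-07) that passed in all 18 alternatives, and it fell by 0.83 ± 0.09 at 24 h against 4 h (adjusted p = 1.92e-05) and by 0.45 ± 0.09 at 4 h against 90 min (adjusted p = 0.00633). Of the 9551 genes with a mean of at least 4, 14.3% fell further than DNMT1 and 12.7% further than UHRF1 at 24 h.

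For HELLS the 5 probe sets disagreed. The one with the highest mean, 227350_at, read 9.75, 9.51 and 9.49 in vehicle, 9.31, 9.94 and 10.11 at 90 min, 9.69, 10.07 and 10.03 at 4 h, and 8.88, 9.01 and 9.19 at 24 h. Its arrays overlapped those of vehicle until 24 h, when all lay below them. By this probe set HELLS fell by 0.55 ± 0.18 at 24 h (adjusted p = 0.0292), a call lost in 7 of 18 alternatives, among them the fits without vehicle replicate 1 (-0.47), vehicle replicate 2 (-0.59), 24 h replicate 1 (-0.48) or 24 h replicate 2 (-0.54), and differed by 0.35 ± 0.18 at 4 h in the other direction (adjusted p = 0.114). Probe set 223556_at read 7.65, 7.52 and 7.60 in vehicle, 6.99, 6.85 and 6.84 at 90 min, 6.52, 6.33 and 6.74 at 4 h, and 5.42, 5.44 and 5.34 at 24 h. That is a stepwise fall with no overlap between groups: it fell by 0.70 ± 0.12 at 90 min, fell by 1.06 ± 0.12 at 4 h and fell by 2.19 ± 0.12 at 24 h (adjusted p = 4.98e-08 over all probe sets). At 24 h probe set 220085_at differed from vehicle by -1.20 ± 0.27 (adjusted p = 0.00441) and 227349_at by -1.46 ± 0.30 (adjusted p = 0.00249), and the fifth probe set, 234040_at, had low signal. With the mean of the 5 probe sets, HELLS was lower by 0.50 at 4 h (adjusted p = 0.0281). All 4 probe sets with signal therefore passed as lower at 24 h, whereas the direction of HELLS at 90 min and at 4 h depends on the probe set.

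**Figure D2:**
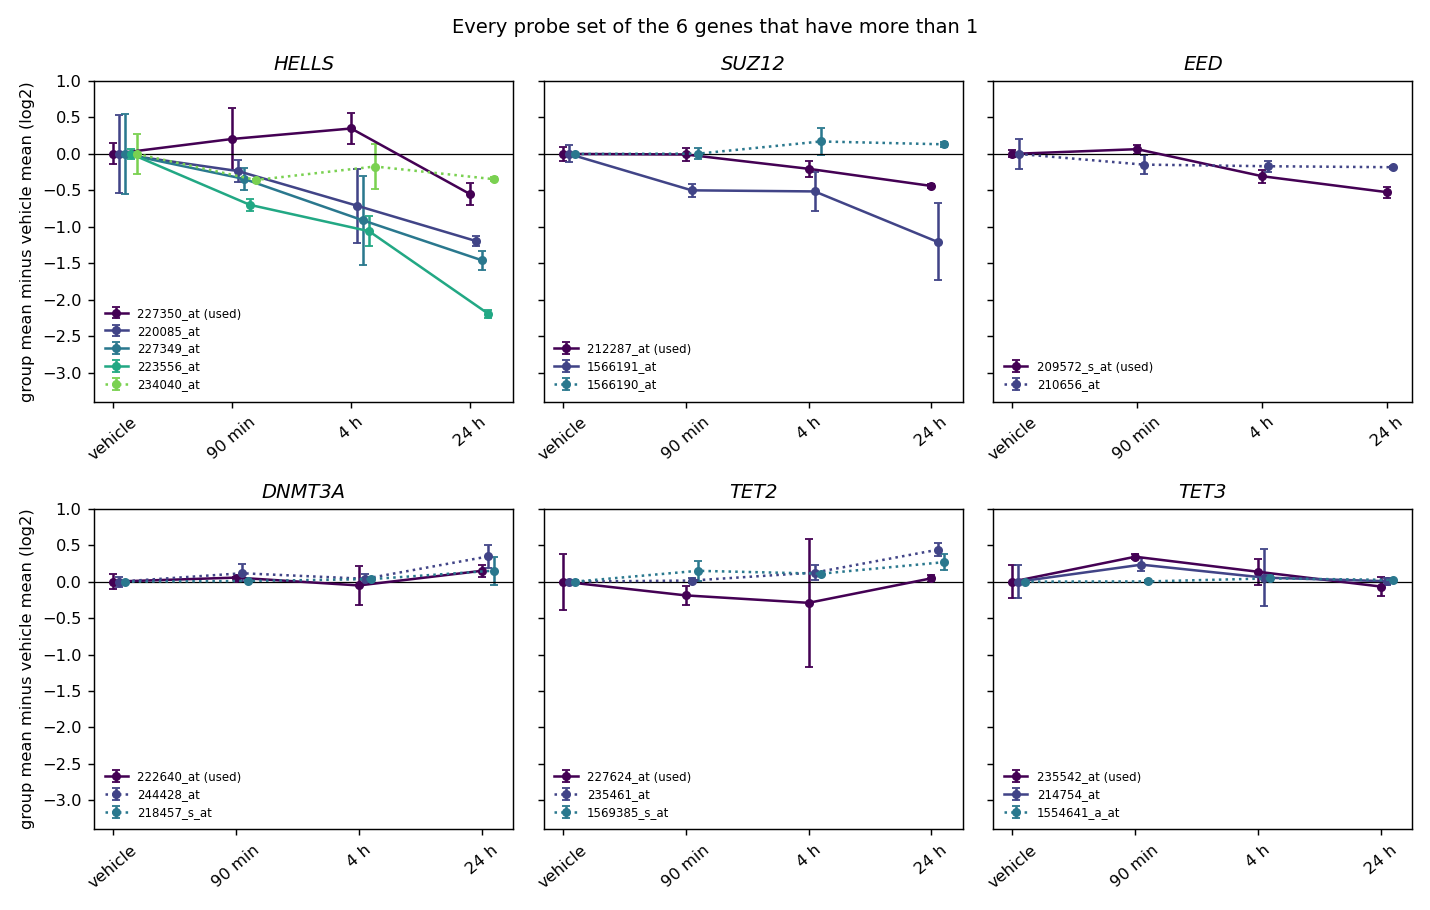
Group means minus the vehicle mean, on the log2 scale, for every probe set of the 6 genes with more than 1, with vehicle at the left and JS-K at 90 min, 4 h and 24 h to its right; bars are SD of 3 arrays and dotted lines mark probe sets with a mean under 4. The 4 HELLS probe sets with signal end between 0.55 and 2.19 below vehicle. They part ways at 90 min and 4 h, where 227350_at sits 0.21 and 0.35 above vehicle and the others sit below it.

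Neither TET gene passed the test against vehicle at any time in the limma fit of all arrays as deposited, unweighted and without a block. TET3 signal was 8.92, 8.53 and 8.54 in vehicle, 9.01, 9.03 and 8.97 at 90 min, 9.00, 8.66 and 8.74 at 4 h, and 8.69, 8.64 and 8.45 at 24 h. The 90 min arrays were the highest group, above every vehicle and 24 h array. On a weaker TET3 probe set, 214754_at, the 90 min arrays (6.05, 5.91 and 6.08) overlapped vehicle (6.03, 5.60 and 5.71). They were above the 24 h arrays there too (5.84, 5.75 and 5.78). Against vehicle TET3 differed by 0.34 ± 0.12 at 90 min (adjusted p = 0.118), which passed in 4 of 18 alternatives, and by -0.07 ± 0.12 at 24 h (adjusted p = 0.630). The 90 min difference passed with the replicate number as a block (0.34, adjusted p = 0.0493) and without vehicle replicate 1 (0.47, adjusted p = 0.0261). It also passed with quantile normalization (0.38, adjusted p = 0.0489) and with array weights (0.46, adjusted p = 0.000689). At 4 h TET3 was called higher with array weights in limma (0.44, adjusted p = 6.02e-06), a setting that called 11257 of 19775 genes higher. A comparison of 24 h with 90 min, added after the values were seen, gave a fall of 0.41 ± 0.12 (adjusted p = 0.0213), a call lost in 5 of 18 alternatives.

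TET2 read 6.94, 6.18 and 6.69 in vehicle, 6.51, 6.27 and 6.47 at 90 min, 6.79, 5.30 and 6.85 at 4 h, and 6.70, 6.63 and 6.62 at 24 h. Its groups overlapped at every time against vehicle, and the 5.30 came from the 4 h array that stood apart. No comparison passed the test in the fit of all arrays, though with array weights TET2 was higher at 4 h against 90 min (0.34, adjusted p = 0.0206), opposite in sign to the unweighted -0.10. The intervals were wide: at 24 h against vehicle the difference was 0.05, with a 95% confidence interval of -0.69 to 0.78. The other 2 TET2 probe sets had low signal, with means of 2.83 and 2.73.

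Among the PRC2 core subunits, EED and SUZ12 fell and EZH2, the catalytic subunit, did not pass the test against vehicle at any time. EED, which binds trimethylated lysine 27, read 9.91, 9.81 and 9.84 in vehicle, 9.96, 9.85 and 9.95 at 90 min, 9.58, 9.45 and 9.61 at 4 h, and 9.37, 9.24 and 9.38 at 24 h. From 4 h on all its arrays lay below those of vehicle, and the 24 h arrays lay below the 4 h arrays. EED fell by 0.31 ± 0.07 at 4 h (adjusted p = 0.00643) and by 0.52 ± 0.07 at 24 h (adjusted p = 5.14e-05), when it was 1.44-fold lower than in vehicle.

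SUZ12, a scaffold of the complex, read 10.78, 10.95 and 10.91 in vehicle, 10.80, 10.83 and 10.97 at 90 min, 10.66, 10.58 and 10.79 at 4 h, and 10.46, 10.42 and 10.43 at 24 h. The vehicle, 90 min and 4 h arrays were close to each other, with 1 array of the 4 h group above the lowest of vehicle, and the 24 h arrays lay below all others. At 4 h the fall of 0.20 ± 0.07 passed narrowly (adjusted p = 0.0449) and was lost in 10 of 17 alternatives, among them the fits without vehicle replicate 2 (-0.17), vehicle replicate 3 (-0.19), 4 h replicate 1 (-0.20) or 4 h replicate 2 (-0.15, adjusted p = 0.107). At 24 h the fall of 0.44 ± 0.07 passed (1.36-fold lower, adjusted p = 0.000298). A weaker SUZ12 probe set, 1566191_at, fell by 1.21 ± 0.23 at 24 h (adjusted p = 0.00128 over all probe sets), with values of 4.84, 5.78 and 5.73 at 24 h against 6.64, 6.56 and 6.79 in vehicle. Its arrays were already wholly below vehicle at 90 min (6.25, 6.07 and 6.17) and at 4 h (6.17, 5.87 and 6.40). The early course of SUZ12 thus depends on the probe set. A further probe set is listed for SUZ12 together with its pseudogene copy SUZ12P1 and was not used, and whether the probe sets used also read the copy was not tested. The arrays of this shared probe set also lay below vehicle at 90 min (8.80, 8.98 and 8.88, against 9.29, 9.25 and 9.22).

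EZH2 read 9.60, 9.61 and 9.60 in vehicle, 9.81, 9.85 and 9.89 at 90 min, 9.82, 9.52 and 9.78 at 4 h, and 9.55, 9.50 and 9.32 at 24 h. All 90 min arrays were above, and all 24 h arrays below, the narrow range of vehicle. The differences were nonetheless small, at 0.25 ± 0.09 at 90 min (adjusted p = 0.104) and -0.14 ± 0.09 at 24 h (adjusted p = 0.168). The 90 min difference passed in 4 of 18 alternatives, including the fit without the 4 h array that stood apart (adjusted p = 0.023). In the added comparison EZH2 fell by 0.39 ± 0.09 at 24 h against 90 min (adjusted p = 0.0031).

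**Figure D3:**
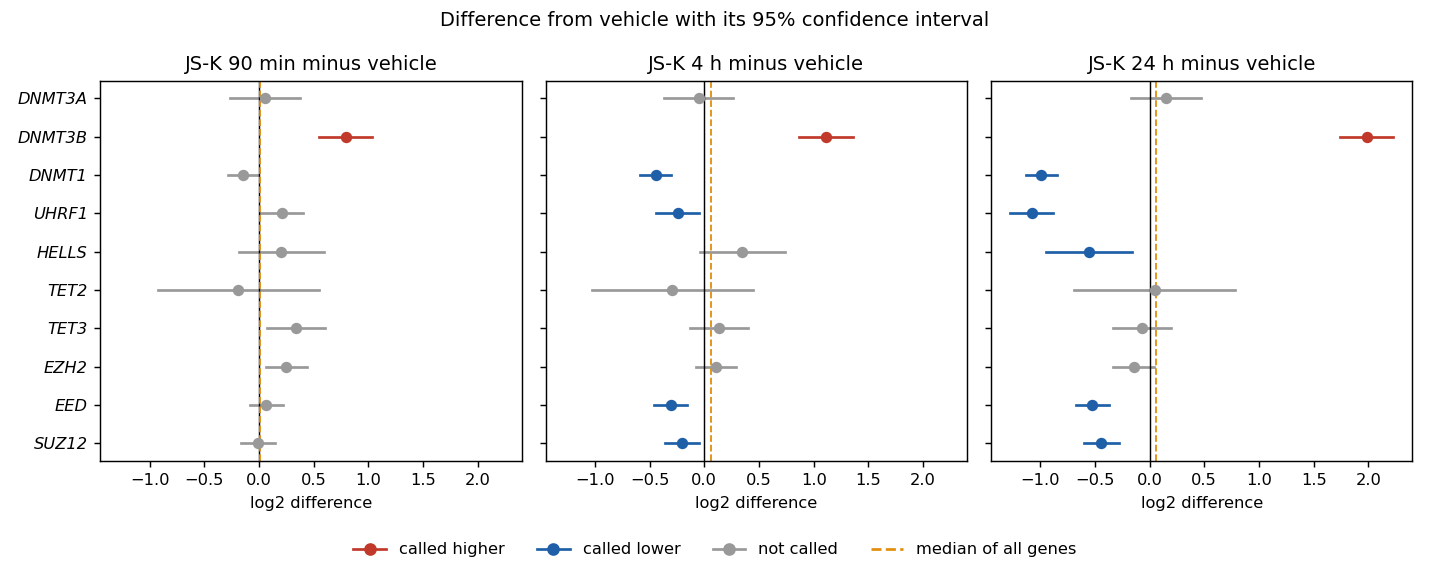
Log2 difference of each JS-K time from vehicle for the 10 genes, with its 95% confidence interval from the limma fit of 12 arrays; red is called higher, blue called lower and grey not called at an adjusted p of 0.05, and the dashed line is the median of all genes. The number called goes up with time, to 1 higher and 5 lower at 24 h. The share called among all genes with a mean of at least 4 goes up too, from 18.6% at 90 min to 47.1% and 63.0%. DNMT3B is the 1 gene right of 0 by more than 0.5.

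Counted together at an adjusted p under 0.05, 1 of the 10 genes was called higher and 0 lower at 90 min, when 9.64% of all genes were called either way (4.03% higher and 5.62% lower). Without adjustment, 4 were higher and 1 lower at p under 0.05 in the same limma fit. Without replicate 2 of the 4 h group, 2 were called higher (DNMT3B and EZH2) and 1 lower (DNMT1), while 13.2% of all genes were called, and with the replicate block 2 were higher (DNMT3B and TET3) and 0 lower. At 4 h 1 was higher and 4 lower, while 40.6% of all genes were called either way (23.9% higher and 16.6% lower). At 24 h 1 was higher and 5 lower, while 36.7% were called either way (17.8% higher and 18.9% lower). Leaving out replicate 2 of the 4 h group gave 1 higher and 2 lower at 4 h, when 12.5% of all genes were called higher and 12.4% lower, and 1 and 5 at 24 h, when 52.0% were called higher and 21.3% lower. With array medians subtracted, the split was 1 higher and 2 lower at 4 h and 1 and 5 at 24 h, and with quantile normalization it was 2 and 2 at 4 h and 2 and 4 at 24 h. The quantile setting added EZH2 as higher at 4 h and DNMT3A as higher at 24 h.

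All 10 genes had a mean of at least 4, and among the 9551 such genes 18.6%, 47.1% and 63.0% were called either way at 90 min, 4 h and 24 h. By direction, 8.05% of them were higher and 10.5% lower at 90 min, 14.7% and 32.4% at 4 h, and 25.9% and 37.1% at 24 h. The counts of 5 of 10 at 4 h and 6 of 10 at 24 h are near the level of other genes with signal. The arrays of 5 of the 10 genes at 90 min, 4 at 4 h and 8 at 24 h did not overlap those of vehicle, while the same held for 26.9%, 70.2% and 82.3% of all genes. The median difference of the 10 genes from vehicle was 0.14, -0.13 and -0.29 at 90 min, 4 h and 24 h, beside 0.01, 0.06 and 0.06 over all genes and -0.03, -0.14 and -0.09 over genes with a mean of at least 4.

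Between JS-K times, 0 were higher and 3 lower (DNMT1, UHRF1 and EED) at 4 h against 90 min, with 10.6% of all genes called (3.33% higher and 7.25% lower), and at p under 0.05 without adjustment in limma 1 was higher and 4 lower. At 24 h against 4 h 1 was higher and 5 lower, with 23.5% of all genes called (12.8% higher and 10.7% lower). The falls of EED (-0.22 ± 0.07, adjusted p = 0.0364) and SUZ12 (-0.24 ± 0.07, adjusted p = 0.0299) in that comparison were small and were lost in 10 and 8 of 17 alternatives. At 24 h against 90 min 1 was higher and 7 lower, with 30.3% called (14.6% higher and 15.7% lower). Among genes with a mean of at least 4, the shares called in these comparisons were 21.1%, 46.5% and 57.7%. Arrays did not overlap for 5, 6 and 10 of the 10 genes, and for 51.7%, 28.4% and 79.0% of all genes. The moderated F test over the 4 groups passed for 7 of the 10 genes and for 38.1% of all genes, and DNMT3A, TET2 and TET3 did not pass it.

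Only DNMT3B and UHRF1 had group means that spanned at least 1 log2 unit, and DNMT1 just missed with 0.99. Over the 12 arrays, which share their 4 groups, the genes closest to DNMT3B by Pearson correlation were SAMSN1 (0.990), SNX11 (0.988) and LPXN (0.987), and those closest to UHRF1 were NFYA (0.994), INPP4B (0.989) and LIPT1 (0.987), out of 2718 genes with signal and a span of at least 1. These values describe a shared course over the series.

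Genes that work at the replication fork, where DNMT1 and UHRF1 act, fell almost as a whole by 24 h. At 24 h 18.9% of all genes and 37.1% of those with a mean of at least 4 were called lower. Of 20 fork genes measured, 0 were called higher and 19 lower at 24 h, with a median difference of -1.32, beside 0.06 over all genes. Without replicate 2 of the 4 h group 20 were lower, in a fit that called 21.3% of all genes lower. Among them GINS2, a helicase subunit, fell by 2.86 ± 0.09, and the helicase subunits MCM3 and MCM2 differed from vehicle by -2.44 ± 0.10 and -2.35 ± 0.09. CHAF1B, which assembles chromatin on new DNA, fell by 2.20 ± 0.21, and the ligase LIG1 did not pass (-0.34 ± 0.14, adjusted p = 0.0728). At 4 h 0 of the 20 were higher and 14 lower, and at 90 min 0 and 3, including the clamp loader subunit RFC4 (-0.38 ± 0.07); that last count was 1 higher and 7 lower without replicate 2 of the 4 h group. PCNA, the sliding clamp that is common to this list and to the methylation list, moved by -0.27 ± 0.07 at 24 h (adjusted p = 0.0116).

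Among other writers and erasers of DNA methylation, more genes were called lower than higher at each time, which also held for all genes with a mean of at least 4. Of the latter, 10.5%, 32.4% and 37.1% were lower at 90 min, 4 h and 24 h, and of all genes 5.62%, 16.6% and 18.9%. Of 16 writers and erasers measured, of which 12 had a mean of at least 4, 1 was higher and 7 lower at 90 min. Their counts were 1 and 8 at 4 h, and 3 and 7 at 24 h, with a median of -0.31 at 24 h, beside 0.06 over all genes. With array medians subtracted, 0 were higher and 5, 8 and 8 lower at the 3 times, and without replicate 2 of the 4 h group 0 were higher and 6 lower at 4 h. CDCA7, which binds hemimethylated CpG and activates HELLS, differed from vehicle by -0.45 ± 0.09 at 90 min, -0.68 ± 0.09 at 4 h and -1.31 ± 0.09 at 24 h (adjusted p = 1.28e-07). Its relative CDCA7L fell by 1.91 ± 0.09 at 24 h, and UHRF2, the paralog of UHRF1, fell by 0.54 ± 0.08. The stress genes GADD45A and GADD45B, which have been linked to active demethylation, were lowest at 90 min, when GADD45B averaged 7.65, against 9.15 in vehicle (adjusted p = 3.08e-06), and GADD45A averaged 5.87, against 7.18 in vehicle (adjusted p = 0.00192). At 24 h they differed from vehicle by -0.34 ± 0.11 (adjusted p = 0.0237) and -0.38 ± 0.21 (adjusted p = 0.148). CXXC5, a CpG-binding zinc finger protein, rose by 0.55 ± 0.13 at 24 h. TET1 and DNMT3L had low signal, with means of 2.66 and 2.62.

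Of 7 measured readers of methylated DNA, 0 were called by limma at 90 min (1 higher and 1 lower at p under 0.05 without adjustment), 2 were higher and 2 lower at 4 h, and 3 were higher and 0 lower at 24 h. Of all genes, 4.03% were higher and 5.62% lower at 90 min, 23.9% and 16.6% at 4 h, and 17.8% and 18.9% at 24 h. Of those with a mean of at least 4, the shares were 8.05% and 10.5%, 14.7% and 32.4%, and 25.9% and 37.1%. The readers called lower at 4 h were MBD1 (-0.28 ± 0.08) and ZBTB33 (-0.46 ± 0.08), named after their values were seen. Without replicate 2 of the 4 h group the 24 h count was 5 higher and 1 lower, in a fit that called 52.0% of all genes higher. At 24 h ZBTB38 rose by 1.27 ± 0.13 and ZBTB4 by 0.98 ± 0.12, both zinc finger proteins that bind methylated CpG, and MBD4, a glycosylase that removes mismatched thymine, by 0.35 ± 0.10. In the methyl donor cycle, which makes S-adenosylmethionine for all of these enzymes, 1 of 14 measured was higher and 4 lower at 90 min, 0 and 6 at 4 h, and 0 and 9 at 24 h, when 18.9% of all genes and 37.1% of those with a mean of at least 4 were lower. At 90 min MTRR, which reactivates methionine synthase, was the gene that rose (0.46 ± 0.08), and at 24 h it differed by -0.74 ± 0.08. Methionine synthase (MTR) fell by 1.45 ± 0.07 and AHCY, which clears the inhibitory product S-adenosylhomocysteine, fell by 1.21 ± 0.09. The folate enzymes MTHFD1 and SHMT2 differed from vehicle by -1.45 ± 0.06 and -0.83 ± 0.07 (adjusted p = 4.53e-09 and 1.13e-06). MAT2A, which makes S-adenosylmethionine, fell by 1.09 ± 0.06 at 4 h (adjusted p = 1.73e-07) and fell by 0.80 ± 0.06 at 24 h. The median of the list was -0.48 at 24 h.

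The other PRC2 components moved in both directions. Of 11 measured, 1 was higher and 0 lower at 90 min (4.03% and 5.62% of all genes). The list held 3 and 2 at 4 h (23.9% and 16.6%), and 4 and 4 at 24 h (17.8% and 18.9%). The last split was 2 and 5 with array medians subtracted and 4 and 3 with quantile normalization, and the median at 24 h was -0.05. PHF19, a Polycomb-like protein that brings PRC2 to target sites, rose by 0.92 ± 0.12 at 90 min, 1.04 ± 0.12 at 4 h and 1.56 ± 0.12 at 24 h (adjusted p = 5.22e-07), and JARID2, a cofactor, rose by 0.50 ± 0.10 at 24 h. EZH1, the alternative catalytic subunit, fell by 1.02 ± 0.14 at 24 h, and EPOP, a PRC2 partner, averaged 6.08, against 7.99 in vehicle (adjusted p = 0.000145). LCOR, whose locus encodes a PRC2 accessory protein, rose by 0.59 ± 0.16, and EZHIP was called higher by 0.05 at a mean of 2.08, which is low signal. JARID2 lies outside the rule that chose which genes of these lists to name.

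Of 18 measured PRC1 subunits, which place ubiquitin on histone H2A or read lysine 27 methylation, 1 was higher and 2 lower at 90 min, 1 and 12 at 4 h, and 3 and 8 at 24 h. All 18 had a mean of at least 4, and among such genes 32.4% were lower at 4 h and 37.1% at 24 h. Without replicate 2 of the 4 h group the 4 h count was 1 higher and 8 lower, and with quantile normalization 2 and 7. At 24 h PCGF1 fell by 1.60 ± 0.12 and CBX2 differed from vehicle by -1.20 ± 0.15 (adjusted p = 4.22e-05). PCGF2 was called lower at low signal (3.55, against 4.84 in vehicle), and PHC2 rose by 1.00 ± 0.08. The H3K27 demethylase KDM6B rose at every time, by 0.66 ± 0.17, 1.12 ± 0.17 and 1.86 ± 0.17 at 90 min, 4 h and 24 h (adjusted p = 2.02e-06 at 24 h), and ASXL1, partner of an H2A deubiquitinase, by 0.57 ± 0.14, 0.67 ± 0.14 and 0.63 ± 0.14. KDM6A and ASXL2 did not pass at any time, which made 2 of 4 measured genes of that list higher and 0 lower at each time. Among genes with a mean of at least 4, 8.05%, 14.7% and 25.9% were higher at 90 min, 4 h and 24 h.

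**Figure D4:**
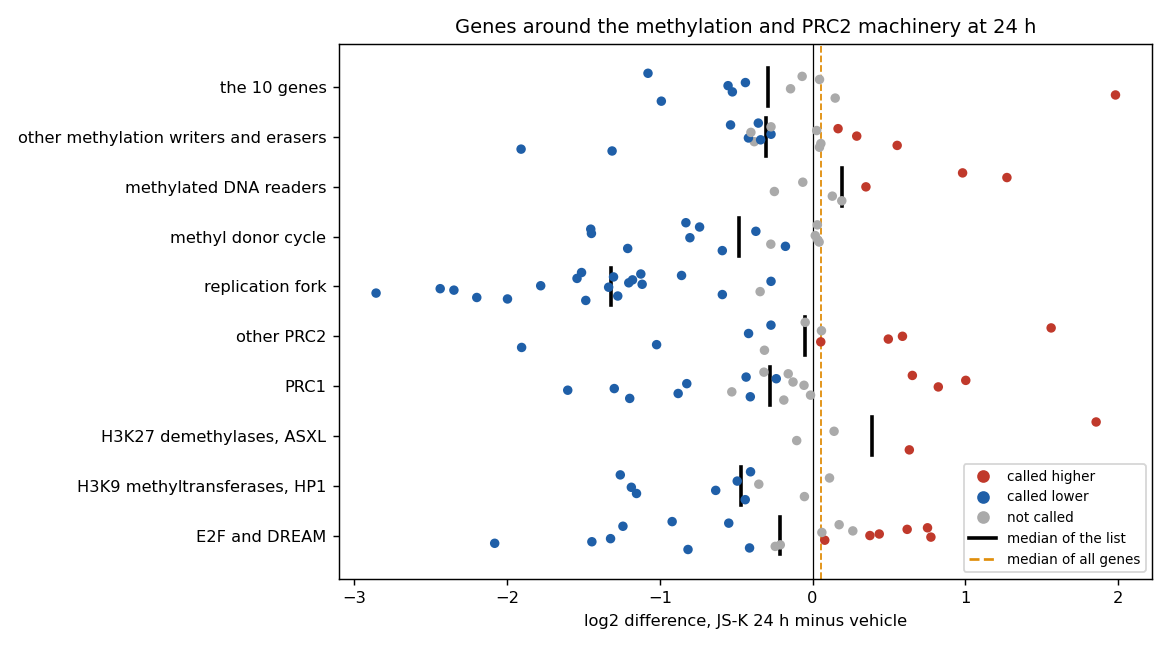
Log2 difference of 24 h of JS-K from vehicle for the 10 genes (top row) and each measured gene of 9 lists, 1 row a list; red is called higher, blue called lower and grey not called, the black bar is the median of the list and the dashed line the median of all genes (0.06). The replication fork list lies furthest left, with a median of -1.32, and PHF19 and KDM6B lie at 1.56 and 1.86.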

How the data were processed

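The authors deposited 1 log2 value per probe set and array, made with GCRMA in Affymetrix Expression Console per the submitters' processing notes, which give no versions. Per the labels' protocols, 200 ng of Trizol RNA was labelled from random hexamers with a whole-transcript kit, whereas the probe set names belong to a design that reads 3′ ends; how kit and design were combined is not given in the sources used here. No further normalization was applied to the deposited log2 signals.

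Of 54675 probe sets, 41097 were listed with 1 symbol, 1801 with several and 11777 with none; by gene identifier, 41043 of the first kind were found among RefSeq genes of GRCh38.p14. The probe set with the highest mean stood for each of 19775 genes. Levels were not compared between probe sets. All 12 arrays entered 1 limma 3.58.1 fit in R 4.3.3 (eBayes with a trend, 8 residual degrees of freedom), with Benjamini-Hochberg adjustment over 19775 genes in each comparison and a threshold of 0.05. The replicates are labelled biological, with no further detail, so the spread behind the p-values is that of these 12 samples and may be technical. The number of arrays limits the precision. Alternatives were array weights, a replicate block, a constant spread, array medians subtracted or quantiles equalized, probe sets averaged or taken singly, filters on low signal, a test against a 1.5-fold change, the 6 arrays of a comparison alone and leaving out single arrays; leaving out 4 h replicate 2 where it is in neither group, and the comparison of 24 h with 90 min, were added after seeing the data. The procedure was tested on simulated data. The 10 genes and all lists were chosen with earlier results of these data known. Named from each list were up to 4 called genes with the largest difference at 24 h and up to 2 each at 4 h and 90 min, of which some are given; other list genes are named after their values were seen.

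Promoter windows and gene positions came from RefSeq tables of GRCh38.p14. Figures were drawn with matplotlib 3.10.9.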

Additional observations from a re-analysis of the deposited data

Results flagged for a closer look

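No group had the 4 arrays needed to test for outlying values. For 5 of the 10 genes the difference from vehicle had opposite signs at 2 JS-K times and the direct limma comparison of those times passed the test. UHRF1 differed from vehicle by -0.24 at 4 h and 0.21 at 90 min, a difference of -0.45 (adjusted p = 0.00633), and by -1.08 at 24 h, which is -1.28 against 90 min (adjusted p = 2.59e-07). HELLS, by probe set 227350_at, differed by -0.55 at 24 h, against 0.35 at 4 h and 0.21 at 90 min, differences of -0.90 (adjusted p = 0.00224) and -0.76 (adjusted p = 0.00531); its other probe sets with signal were below vehicle at all 3 times. EZH2 differed by -0.14 at 24 h and 0.25 at 90 min, a difference of -0.39 (adjusted p = 0.0031). TET3 differed by -0.07 at 24 h and 0.34 at 90 min, a difference of -0.41 (adjusted p = 0.0213). EED differed by -0.31 at 4 h, -0.52 at 24 h and 0.07 at 90 min, differences of -0.37 (adjusted p = 0.00418) and -0.59 (adjusted p = 2.14e-05). None of these 5 genes passed against vehicle at 90 min in the limma fit of all arrays as deposited, unweighted and without a block. Among 18 alternatives, EZH2 and TET3 passed as higher in 4 each, with the replicate block 1 of them for TET3 (adjusted p = 0.0493). UHRF1 passed in 1, with array weights (0.29, adjusted p = 0.00227), and HELLS and EED in none. The early values above vehicle depend on the setting and are not shown to be rises. The direct comparisons of JS-K times also carry the difference in spikes given above, whose part was not tested.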

How the results depend on the processing

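DNMT3B at 4 h and 24 h and DNMT1 and UHRF1 at 24 h passed against vehicle in every alternative, and none of the calls against vehicle or between times changed sign. Of 1050 values of single genes, 921 kept their direction and side of the threshold, 70 lost the call, 29 gained it and 30 changed sign, all of these from differences that had not passed; 2 of the 30 passed with the new sign, HELLS at 4 h with the mean of probe sets and TET2 at 4 h against 90 min with array weights. Called genes among the 10 at 90 min against vehicle numbered 3 with quantile normalization, 5 with array weights, 2 with the replicate block, 2 with the 6 arrays of the comparison and 0 with limma's test against a 1.5-fold change (1 without adjustment). At 4 h they numbered 3 with a constant spread, with array medians subtracted and with 6 arrays, and 1 with the 1.5-fold test. The 1.5-fold test gave 3 at 24 h, 0 at 4 h against 90 min (0 without adjustment), 0 at 24 h against 4 h (2 without adjustment) and 3 at 24 h against 90 min, and array weights gave 6 at 4 h against 90 min. Leaving out single arrays gave 1 to 3 at 90 min (2 without vehicle replicate 1, 3 without JS-K 4 h replicate 2), 3 to 4 at 4 h (3 without vehicle replicate 2, vehicle replicate 3 or JS-K 4 h replicate 2), 5 to 6 at 24 h, 3 at 4 h against 90 min, 4 to 7 at 24 h against 4 h (4 without 4 h replicate 1, 4 h replicate 3, 24 h replicate 2 or 24 h replicate 3), 7 to 8 at 24 h against 90 min and 6 to 8 in the F test. The replicate block changed no other count by over 1.5 times. Deviations from group means correlated by 0.07 on average in 18 same-numbered pairs, of which 6 exceeded 0.1, and by -0.04 in 36 others, of which 4 did. Of 12 arrays, 8 correlated best with their own number. Same-numbered arrays were thus somewhat more alike, and the labels do not say whether the numbers pair the samples. The fit behind the results has no block, which is given as an alternative. Same-numbered values were 0.09, 0.30 and 0.19 for 4 h with 90 min and -0.15, 0.09 and 0.009 for 4 h with vehicle. For 90 min and vehicle alone all 3 pairs exceeded 0.1 (0.12 to 0.26), and there the block changed the call of TET3 (adjusted p = 0.0493) and no other.

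Sign changes with the mean of probe sets were HELLS -0.29 at 90 min, -0.50 at 4 h and -0.22 at 4 h against 90 min, EED -0.041 at 90 min and DNMT3A 0.0071 at 4 h. With array weights they were HELLS -0.0011 at 90 min, DNMT3A 0.084 at 4 h and 0.068 against 90 min, TET2 0.13 at 4 h, 0.34 against 90 min, -0.0070 at 24 h and -0.14 against 4 h, and TET3 0.049 at 24 h. Quantile normalization gave DNMT3A 0.11 at 4 h and TET3 0.042 at 24 h, and subtraction of array medians TET2 -0.052 at 24 h. Leaving out single arrays, sign-changing ranges were, for DNMT3A, -0.0022 to 0.087 at 90 min, -0.14 to 0.10 at 4 h and -0.20 to 0.046 at 4 h against 90 min; for SUZ12, -0.060 to 0.029 at 90 min; for TET2, -0.56 to 0.22 at 4 h, -0.16 to 0.21 at 24 h, -0.37 to 0.40 at 4 h against 90 min and -0.17 to 0.60 at 24 h against 4 h; for TET3, -0.13 to 0.062 at 24 h; and for HELLS, -0.094 to 0.31 at 4 h against 90 min. The causes were not tested. Subtraction of array medians shifted the median of all genes at 4 h to -0.04 (0.06 as deposited) and turned 4735 higher and 3286 lower genes into 849 and 3120, and at 24 h it gave 2239 and 4139 (3518 and 3735 as deposited). Over all genes, called counts ranged from 134 to 9527 at 90 min, 548 to 16126 at 4 h and 2359 to 16172 at 24 h across alternatives.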

Other observations

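Genes of other silencing systems and genes that DNA methylation or PRC2 are known to keep off in somatic cells were also listed. Of 10 H3K9 methyltransferase and HP1 genes, 0 were higher and 7 lower at 24 h, with a median of -0.47 beside 0.06 over all genes. At that time 18.9% of all genes and 37.1% of those with a mean of at least 4 were lower. The H3K9 methyltransferase SUV39H2 fell by 1.26 ± 0.12 and EHMT2, another, fell by 1.19 ± 0.15. CBX5, which encodes HP1 alpha, averaged 9.34 at 4 h and 9.69 at 24 h, against 10.84 in vehicle (adjusted p = 0.000769 and 0.00234). Of 19 E2F and DREAM regulators, 4 were higher and 3 lower at 90 min (4.03% and 5.62% of all genes). The list held 8 and 2 at 4 h (23.9% and 16.6%), and 6 and 8 at 24 h (17.8% and 18.9%). With array medians subtracted the splits of the list were 0 and 1, 2 and 1, and 3 and 9. RBL1, a pocket protein, rose by 0.56 ± 0.14 at 90 min and E2F2 rose by 0.82 ± 0.15 at 4 h, while TFDP2, an E2F partner, fell by 0.80 ± 0.20 at 90 min. E2F8 and RBL1 differed from vehicle by -1.32 ± 0.07 and -1.24 ± 0.14 at 24 h, E2F6 averaged 7.51, against 8.96 in vehicle, and E2F5 was called lower at low signal (3.58, against 5.66 in vehicle).

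Of 21 germline genes silenced by promoter methylation, 1 had a mean of at least 4. That gene, TDRD9, rose by 0.97 ± 0.18 at 24 h (5.36, against 4.39 in vehicle). In all 4 were called higher and 0 lower at 24 h, a count that was 18 higher without replicate 2 of the 4 h group, in a fit that called 52.0% of all genes higher, and 17.8% with that array. The list median at 24 h was 0.07 beside 0.06 over all genes. At 4 h 9 were called higher, and 2 without that array, when 23.9% and 12.5% of all genes were. Of 20 measured developmental genes known as PRC2 targets, 4 had a mean of at least 4, so most of the counts below come from low signal. In this list 3 were higher and 2 lower at 24 h (15 and 2 in that same fit without the array), and 8 higher and 2 lower at 4 h (0 and 2 without it). CDKN2B, a cell cycle inhibitor, was called higher and averaged 5.86 at 24 h, against low signal in vehicle (2.76), where no size of change can be given. MEIS1, a homeobox gene of leukemia, differed from vehicle by -0.88 ± 0.08 at 90 min, -1.84 ± 0.08 at 4 h and -0.50 ± 0.08 at 24 h. LHX2 fell by 0.54 ± 0.14 at 24 h. MEIS1 and LHX2 averaged 10.31 and 7.66 in vehicle, so neither was kept at low signal in these cells.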
